A study of Mus musculus with 2 samples.

Results

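The cells described here are 282 cell barcodes that carried transcripts of Vcam1 or Entpd2 and in which 5 to 10% of the transcripts were mitochondrial. They were found in single-cell RNA sequencing of neural stem cells grown from the mouse subventricular zone, the stem cell niche along the lateral ventricles. They made up 282 of the 13278 barcodes with at least 500 detected genes and at most 10% mitochondrial counts, or 2.12% (exact binomial 95% interval 1.89% to 2.38%), of 14685 barcodes in all. A barcode was a member when it met all of these conditions on its unique molecular identifiers (UMIs, each 1 counted transcript molecule): at least 500 detected genes, a mitochondrial share of 5 to 10%, at least 2 UMIs of Vcam1 and Entpd2 together, fewer than 20 UMIs of Gfap, at most 1 UMI of Pcp4, Agt and Gria1 together, and at most 1 UMI of the mitotic genes Mki67, Top2a, Cdk1, Ube2c and Cenpf together. Counting down the conditions in that order, the barcodes fell from 13278 to 2598 with the mitochondrial share, to 602 with the Vcam1 and Entpd2 minimum, to 402 with the Gfap limit, to 301 with the Pcp4, Agt and Gria1 limit and to 282 with the mitotic limit.

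The cultures came from C57/Bl6J mice and were sequenced 3 days after the mitogens EGF and FGF were withdrawn, a step both groups shared. One library came from a DMSO control and the other from cells treated with 1 µM of the oxysterol 20HC. The treatment text of the control also mentions 20HC, and its group was taken from its title. The counts of both libraries are in 1 matrix whose barcodes end in the number 1 or 2 (here barcode set 1 and barcode set 2), and nothing ties a number to a library, so the matrix is 1 sample and neither a treatment comparison nor a test was possible. Set 1 held 189 members of 9869 kept barcodes (1.92%, 1.65% to 2.21%) and set 2 held 93 of 3409 (2.73%, 2.21% to 3.33%). Of the barcode sequences, 48 occurred in both sets, and 3 members carried 1 of them. A doublet caller marked 2 members. It marked 2.95% of set 1 and 0.352% of set 2, so few that it cannot be said to have worked in set 2, and called doublets were kept.

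Vcam1 encodes a cell surface adhesion molecule that binds integrins and is known for anchoring quiescent stem cells of this niche. Entpd2 encodes an enzyme on the cell surface that breaks down extracellular ATP, and in this region it is known from astrocyte-like stem cells. Mitochondrial transcripts are made inside the organelle from its own small genome, whereas most respiratory chain subunits are encoded in the nucleus. Their share of a droplet's counts moves both with the mitochondria of the cell and with how much cytoplasmic RNA the droplet retained. Membrane and secreted proteins fold in the endoplasmic reticulum (ER) with the help of chaperones, whose genes are switched on together by the unfolded protein response (UPR).

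Vcam1 lies at chr3:116109949-116129688 on the minus strand and Entpd2 at chr2:25395874-25401321 on the plus strand (GRCm38, GENCODE M21). The members had 369 UMIs of each gene among 760803 UMIs, a level of 485 CPM (counts per 1e+06 UMIs of the group) for both. In barcode sets 1 and 2 the level of Vcam1 was 463 and 535 CPM, and that of Entpd2 was 444 and 578 CPM. Both genes came together in many members: 149 had UMIs of both, 74 of Vcam1 only and 59 of Entpd2 only. The minimum of 2 UMIs was met exactly by 176 members, 66 had 3, 25 had 4, 6 had 5, 6 had 6, 2 had 7 and 1 had 8. Thus most members entered by a single UMI more than a barcode left out. Gfap, the astrocyte filament gene, had 0 UMIs in 38 members and a median of 3, the genes Pcp4, Agt and Gria1 had none in 200 members, and the mitotic genes had none in 246. These values follow from the rule and are given as a description only.

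The members had between 793 and 6346 UMIs, with a median of 2616, and between 500 and 2514 detected genes, with a median of 1353. Their mitochondrial share ran from 5.01% to 9.98% with a median of 6.81%. All kept barcodes had a median of 2860 UMIs and 3.05% mitochondrial UMIs. In the plot of depth against mitochondrial share, the members of both sets filled the whole window with no gap.

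**Figure D1:**
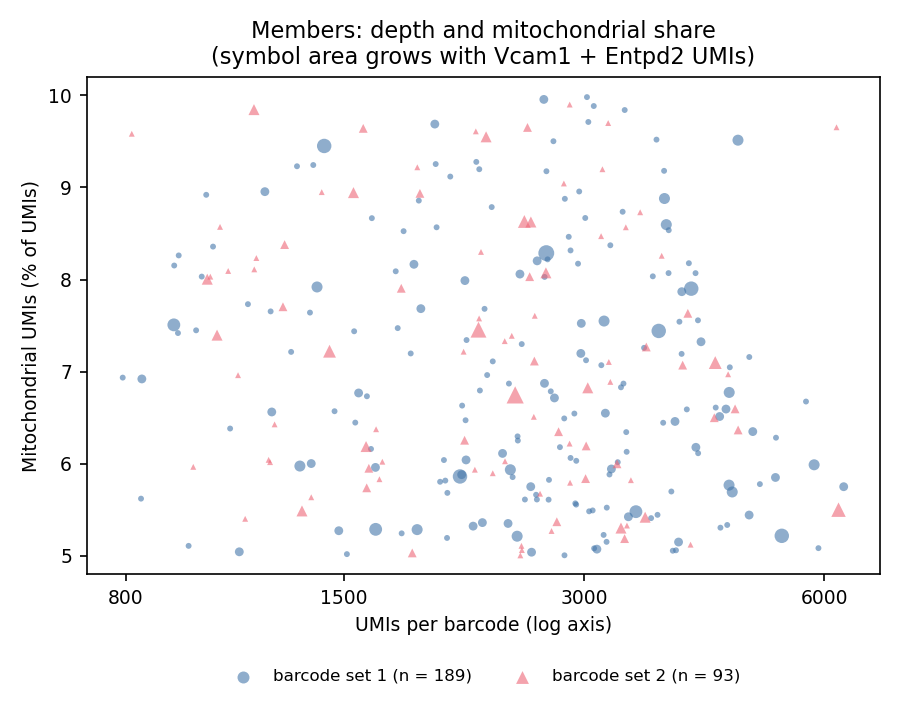
Each symbol is 1 of the 282 members, placed by its UMIs (x axis, log scale) and the percentage of them that was mitochondrial (y axis), with a symbol area that grows with its Vcam1 and Entpd2 UMIs. The 189 members of set 1 (circles) and the 93 of set 2 (triangles) overlap over the whole range of 793 to 6346 UMIs and 5.01% to 9.98%.

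Barcodes just inside and just outside each threshold compared as follows. Barcodes that met every other condition and had a mitochondrial share of 4 to 5% (144 barcodes) had 180 CPM of Pdia4 and 545 CPM of Slc1a3, and the 85 members at 5 to 6% had 202 and 610 CPM. At the upper limit the 30 members at 9 to 10% had 308 CPM of Pdia4 and 987 CPM of Slc1a3, and the 26 barcodes at 10 to 11% had 215 and 846 CPM. Neither limit of the mitochondrial share thus parted high from low levels of these genes. Barcodes with 1 UMI of Vcam1 and Entpd2 (318) had 180 CPM of Pdia4, against 234 CPM in the 176 members with 2 UMIs. The 25 members with 15 to 19 UMIs of Gfap had 280 CPM of Pdia4, and the 35 barcodes with 20 to 24 had 150 CPM. Slc1a3 stood at 933 and 749 CPM and Clu at 1839 and 1648 CPM in these groups. Such groups are small, and no interval was computed for their levels.

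The label of these cells also names Pdia4, Plat and Clu as markers. Pdia4 (chr6:47796141-47813430, minus strand) encodes a protein disulfide isomerase of the ER. It stood at 259 CPM in the members (227 in set 1 and 332 in set 2) and at 117 CPM in all other kept barcodes (122 and 104). Its ratio was 2.21 (exact 95% interval 1.91 to 2.55). All intervals here are exact Poisson or binomial ones for 1 pooled sample and cover counting error only. Clu (chr14:65968483-65981547, plus strand), a secreted chaperone of astrocytes, stood at 1625 CPM (1518 and 1868) against 849 CPM (879 and 764), a ratio of 1.91 (1.81 to 2.03). Plat (chr8:22757727-22782844, plus strand), tissue plasminogen activator, stood at 150 CPM (144 and 164) against 94.6 CPM (93.7 and 97.4), a ratio of 1.58 (1.30 to 1.91). All 3 were higher in the members of both sets than in the other barcodes.

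Vcam1 and Entpd2 were low in barcodes of other kinds, and the other markers in some of them. In 1004 barcodes with at least 3 UMIs of the neuroblast genes of the Dlx family, which were about as deep (median 2885.5 UMIs), Vcam1 stood at 23.2 CPM, Entpd2 at 27.0 CPM, Pdia4 at 56.3 CPM and Clu at 147 CPM. In 219 barcodes with at least 3 collagen UMIs, Vcam1 stood at 19.4 CPM and Entpd2 at 28.6 CPM, but Pdia4 at 122 CPM, near the average barcode, and Plat at 280 CPM, above its level in the members. In 42 barcodes with at least 3 UMIs of Pdgfra or Gpr17, Vcam1 stood at 31.1 CPM, Entpd2 at 12.5 CPM and Plat at 131 CPM (81.0 to 199.9). Plat was therefore not particular to the members.

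The members formed no cluster of their own. Among clusters of all kept barcodes, 168 members (59.6%) fell in the one led by Pcp4, Agt and Gria1, where they were 4.39% of 3827 barcodes. Another 98 (34.8%) fell in one with Slco1c1 and Gfap among its leading genes, where they were 3.12% of 3144. These 2 clusters are called the astrocyte-gene clusters below, after their leading genes Agt and Gfap. Of the rest, 10 were in a cluster led by the hypoxia genes Car9, Cox4i2 and Adm. There they were 3.13% of 319 barcodes, a share like that in the cluster with Slco1c1 and Gfap. A further 4 were in one led by Mfge8, Prss23 and Mycn (0.346% of 1155). The last 2 were 1 each in a cluster led by Cdc6 and in one with Spp1 and Crabp1 among its leading genes. With called doublets left out, genes left unscaled, or both, 87.5% to 95.7% of the members lay in the 2 clusters that held most of them, and they were at most 4.51% of any cluster.

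**Figure D2:**
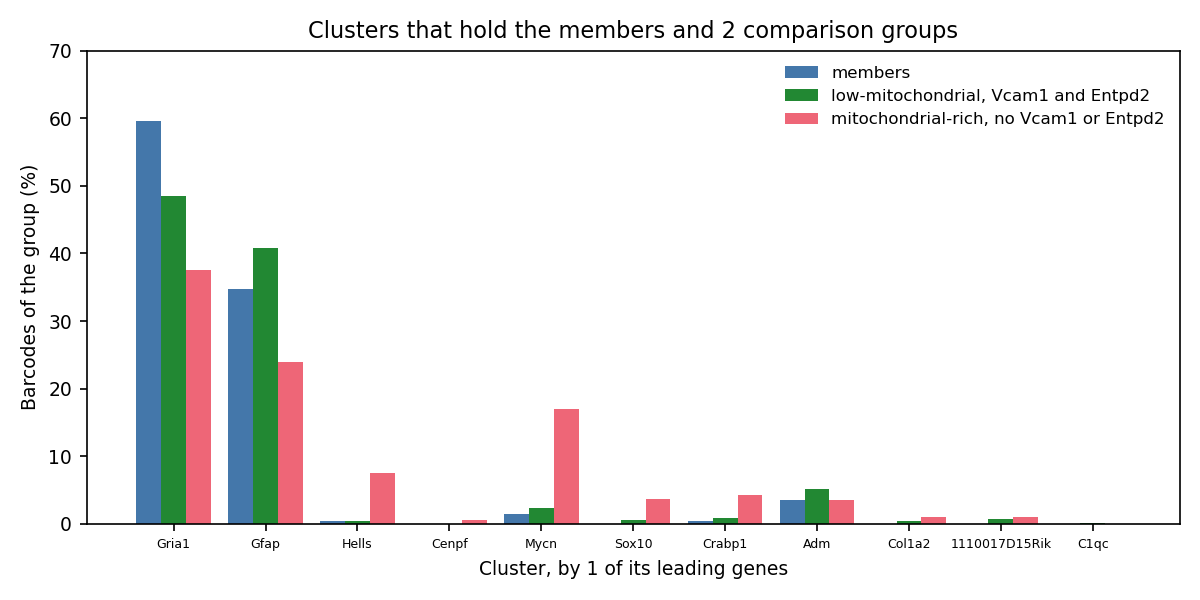
Bars give the percentage of each group's barcodes (y axis) in each of 11 clusters, named by 1 of their leading genes (x axis), for the members, for barcodes with the same markers and a lower mitochondrial share, and for barcodes with the same mitochondrial share and no Vcam1 or Entpd2. The clusters labelled Gria1 and Gfap hold 59.6% and 34.8% of the members but only 454 of the 738 barcodes without the markers, of which 16.9% lie in the cluster labelled Mycn.

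The members were set against 5 groups of barcodes. These were all 12996 other kept barcodes; the 711 barcodes that met every condition but had a mitochondrial share under 5% (low-mitochondrial marker barcodes); the 738 that met every condition but had no UMI of Vcam1 or Entpd2 (marker-free mitochondrial-rich barcodes); 2273 with at least 20 Gfap UMIs (Gfap-high barcodes); and 1361 with at least 2 UMIs of Pcp4, Agt and Gria1. The low-mitochondrial marker barcodes had a median of 2951 UMIs and 3.04% mitochondrial UMIs, and the marker-free mitochondrial-rich barcodes had 2385 UMIs and 6.50%. A gene was counted as higher or lower when it had at least 30 UMIs in both groups together, a ratio of CPM of at least 1.5, ratios on the same side of 1 in sets 1 and 2, and a comparison level outside the exact 95% Poisson interval of the members. This criterion is not a test, and it carries the counting error of the members only. Median log2 ratios are of CPM + 5. Because the members were chosen on the RNA of these same barcodes, every comparison below is a description, and the 5 share the same members.

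Against all other kept barcodes, 1128 of 13044 measured genes (8.65%) were higher in the members and 822 (6.3%) were lower, without the genes of the rule and the mitochondrial genes. Of 30 astrocyte genes, 17 were higher and none lower. Their ratios were moderate, and none of the 30 passed at 2-fold. Their median log2 ratio was 0.64, against 0.04 over all measured genes, and together they stood at 33173 CPM against 21605 CPM. Aqp4, the water channel of astrocyte endfeet, stood at 1112 CPM against 678 CPM (ratio 1.64, 1.53 to 1.76). Gja1, the astrocyte gap junction protein, stood at 706 CPM against 368 CPM (1.92, 1.76 to 2.09). Slc1a3, the glutamate transporter of radial glia and astrocytes, stood at 701 CPM (611 and 906 in sets 1 and 2) against 374 CPM (365 and 401), a ratio of 1.87 (1.72 to 2.04). Of 25 quiescent stem cell genes, 9 were higher: Apoe, Cd9, Fgfr3, Hopx, Id4, Lrig1, Slc1a3, Sox9 and Tspan7. Several genes stand on both of these lists.

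Genes of activated progenitors ran the other way. Of 17, none was higher and 13 were lower, with a median log2 ratio of -1.38, and together they stood at 1129 CPM against 3582 CPM. Ccnd2, a cyclin of the G1 phase, stood at 359 CPM (412 and 237 in sets 1 and 2) against 1676 CPM, 0.214 times that level (0.189 to 0.241). Mcm6, a subunit of the replication helicase, stood at 9.20 CPM against 64.8 CPM. The limit on mitotic genes in the rule keeps most dividing cells out of the members, and several genes of this list are those of the cell cycle.

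Fewer of these genes passed when the comparison was matched more closely. With comparison barcodes limited, like the members, to at most 1 mitotic UMI, 528 of 12677 genes (4.17%) were higher and 347 (2.74%) lower, and 1 astrocyte gene (of 17), 3 quiescent stem cell genes (of 9) and 5 ER genes (of 9, given next) passed as higher. When both groups were restricted to the 2 astrocyte-gene clusters (266 members and 6705 other barcodes), 342 of 11981 genes (2.85%) were higher in the members and 152 (1.27%) were lower. None of the 30 astrocyte genes, none of the 25 quiescent stem cell genes and none of 16 measured activated progenitor genes passed in either direction there. Of the ER genes, 5 of 30 still did.

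ER chaperone and UPR genes were higher in the members than in all other barcodes at 9 of 31, with none lower. Their median log2 ratio was 0.36, and together they stood at 4122 CPM against 3185 CPM (1.29, 1.25 to 1.34). Beside Pdia4, the list held Hspa5 (BiP, the main ER chaperone of the Hsp70 family, chr2:34771970-34777547, plus strand) at 432 CPM (370 and 574 in sets 1 and 2) against 269 CPM (276 and 249), a ratio of 1.61 (1.44 to 1.79). Sil1, the nucleotide exchange factor of BiP, stood at 74.9 CPM (62.4 and 104) against 37.9 CPM, a ratio of 1.98 (1.49 to 2.58). Both partners were thus higher, and Dnajc3, a co-chaperone of BiP, stood at 84.1 CPM against 47.6 CPM (1.77, 1.36 to 2.27). Sel1l, an adaptor of ER-associated degradation, stood at 64.4 CPM against 33.8 CPM (1.90, 1.40 to 2.53), and its ubiquitin ligase partner Syvn1 at 18.4 CPM, from 14 UMIs, against 9.62 CPM (1.91, 1.04 to 3.25). Hspa13, Derl1 and Dnajb9 completed the 9, with ratios of 1.65, 1.54 and 1.59. The other 22 genes did not pass, among them the abundant chaperones Calr (572 against 424 CPM), Hsp90b1 (397 against 308 CPM) and Canx (287 against 205 CPM). Herpud1 had a ratio of 0.701 (0.349 to 1.26).

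The 5 ER genes that also passed within the astrocyte-gene clusters were Hspa13, Hspa5, Pdia4, Sel1l and Sil1. There Pdia4 stood at 266 CPM in the members and 161 CPM in the other barcodes (1.65, 1.42 to 1.91), and Hspa5 at 443 against 287 CPM (1.54, 1.38 to 1.73). Against the marker-free mitochondrial-rich barcodes of the same clusters, Hspa13, Pdia4 and Sil1 passed.

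UPR factors act through short promoter elements, and the classical one, the ER stress response element (ERSE), reads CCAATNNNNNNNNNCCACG. It was searched on both strands in the 250 bases before each gene's RefSeq start, in promoter sequences of RefSeq for GRCm38.p6, to see which genes of the list carry it. It occurred in 37 of 32851 promoters (0.113%) and in 9 of the 25 ER genes in that table (36%). Elements of genes that were higher and of genes that were not follow, each 5′ to 3′ with 5 bases on either side. The capitals mark the CCAAT and CCACG boxes.

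Hspa5: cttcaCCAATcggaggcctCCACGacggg

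Dnajc3: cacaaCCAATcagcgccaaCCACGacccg

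Syvn1: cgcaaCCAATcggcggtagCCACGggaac

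Calr: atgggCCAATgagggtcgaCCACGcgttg

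Canx: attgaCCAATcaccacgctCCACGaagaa

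Pdia6: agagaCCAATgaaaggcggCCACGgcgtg

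Creld2: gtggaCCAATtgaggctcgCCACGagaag

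The Hspa5 element lies at chr2:34772020-34772048, with the boxes 65 to 47 bases before the start that RefSeq gives. The GENCODE M21 gene begins further upstream, so the element lies inside that span. Those of Dnajc3 and Syvn1 lie at chr14:118937822-118937850 and chr19:6046527-6046555. Those of Calr, Canx, Pdia6 and Creld2 lie at chr8:84847070-84847098, chr11:50325795-50325823, chr12:17266486-17266514 and chr15:88819515-88819543. Of the ER genes that were higher, 6 were in the promoter table and 3 of these (Hspa5, Dnajc3 and Syvn1) held the element. The other 6 genes with it, Calr, Canx, Creld2, Derl3, Hsp90b1 and Pdia6, did not pass, and Pdia4 had no match in its window. Genes with the element thus stood on both sides of the criterion. The core TGACGTG of another UPR element occurred in 542 promoters (1.65%), of the ER genes only in Hspa5. A match of letters shows neither binding nor control.

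**Figure D3:**
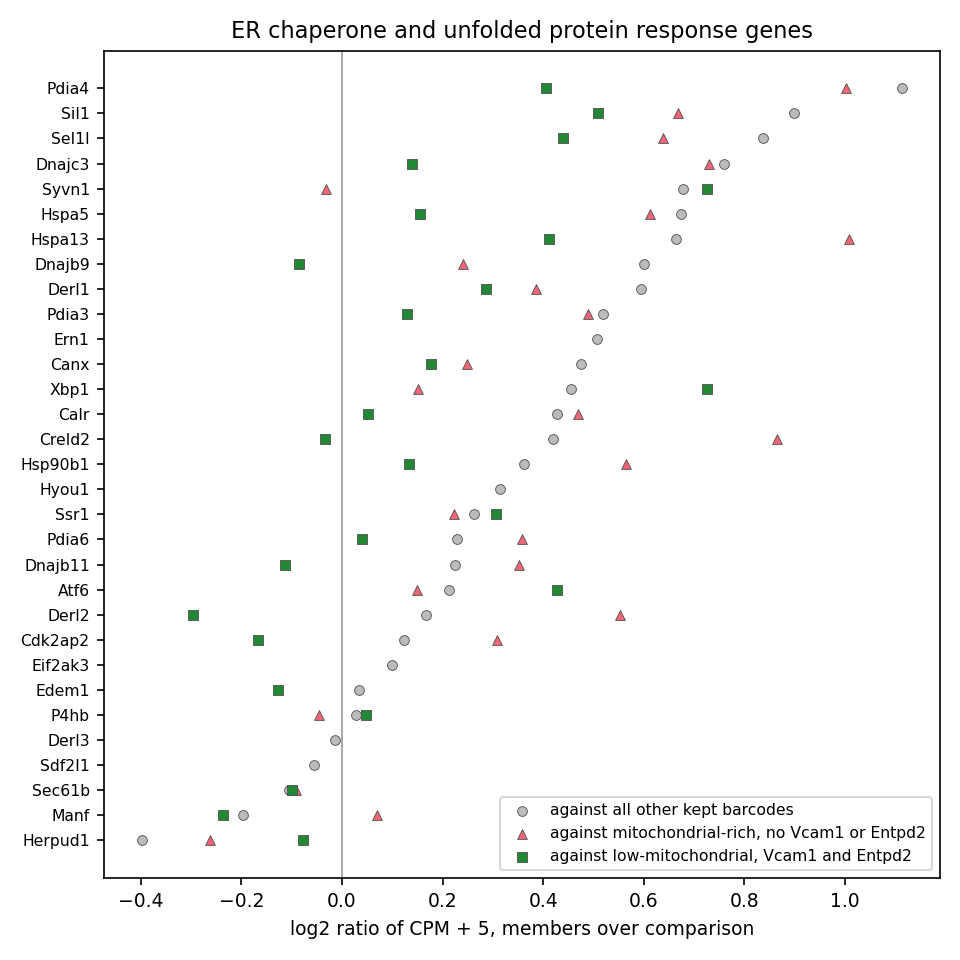
The log2 ratio of CPM + 5 (x axis) is plotted for the measured genes of the ER chaperone and UPR list (y axis), members over all other kept barcodes (circles), over marker-free mitochondrial-rich barcodes (triangles) and over low-mitochondrial marker barcodes (squares). Pdia4 has the highest circle, at a ratio of 2.21, and most squares lie nearer to 0 than the circles of the same gene.

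The question of which differences go with the mitochondrial share was addressed with the 711 low-mitochondrial marker barcodes, which share every other condition. The groups also differed in depth, with medians of 2616 and 2951 UMIs, and in cluster. Of the members 59.6%, and of the low-mitochondrial barcodes 48.5%, lay in the cluster led by Pcp4, Agt and Gria1. Of 8064 measured genes, 427 (5.3%) were higher in the members and 216 (2.68%) were lower, and the median log2 ratio was 0.00. The astrocyte list stood at 33173 CPM in the members and 33037 CPM in the low-mitochondrial barcodes, with 2 of 27 genes higher (Fgfr3 and Slc1a3). Quiescent stem cell genes were higher at 4 of 22 (Fgfr3, Gas1, Hopx and Slc1a3), and none of 13 activated progenitor genes passed. Slc1a3 stood at 701 CPM (611 and 906 in sets 1 and 2) against 456 CPM (444 and 485), a ratio of 1.54 (1.38 to 1.71). Hopx, a marker of quiescent stem cells, stood at 35.5 CPM against 17.4 CPM (2.04, 1.20 to 3.44). Within the astrocyte-gene clusters, 413 of 7738 genes were higher in the members and 205 lower. There S100b and Slc1a3 were the astrocyte genes that passed, of 27, and Hopx and Slc1a3 the quiescent stem cell genes, of 22. As a whole, the members and the low-mitochondrial marker barcodes had like levels of both lists.

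ER genes also stood closer in this pair. Of 26, Syvn1 was the one that was higher (18.4 against 9.14 CPM, 2.01, 0.940 to 4.19), an interval that includes 1. Within the astrocyte-gene clusters Sil1 and Syvn1 passed, of 24. Under alternatives 0 to 5 genes of this list passed, 5 of them with levels averaged per barcode and 3 with barcodes thinned to 1000 UMIs. The list stood at 4122 CPM against 3876 CPM (1.06, 1.02 to 1.11). Pdia4 stood at 259 CPM (227 and 332) against 194 CPM (201 and 178), a ratio of 1.33 (1.12 to 1.58) that missed the 1.5 required. Hspa5 stood at 432 CPM against 388 CPM (1.11, 0.978 to 1.27). Vcam1 itself, set by the rule in both groups, stood at 485 and 374 CPM.

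The mitochondrial genes differ between these groups because the rule chose them. Mitochondria-encoded transcripts together made up 69300 CPM in the members and 31225 CPM in the low-mitochondrial barcodes, a ratio of 2.22, and 11 of 12 measured genes were higher. They did not differ by the same factor: mt-Co1, mt-Co2 and mt-Co3, the core subunits of cytochrome oxidase, had ratios of 2.56, 2.59 and 2.63. The ratio was 2.03 for mt-Atp6 of ATP synthase, and 1.13 for mt-Atp8, from 29 UMIs in the members. Among genes of complex I, mt-Nd4 and mt-Nd2 had 1.85 and 1.69, and mt-Nd5 and mt-Nd1 had 2.06 and 2.05. But mt-Nd4l and mt-Nd3 had 2.88 and 2.70, from 49 and 137 UMIs in the members, and mt-Nd6 had 1.06 from 7. Complex I genes thus lay both above and below those of cytochrome oxidase. Of all mitochondria-encoded UMIs, mt-Co3 made up 15.1% in the members and 12.8% in the low-mitochondrial barcodes, and mt-Nd4 11.2% and 13.5%. The marker-free mitochondrial-rich barcodes had 15.7% mt-Co3 and 10.4% mt-Nd4, near the members.

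Nuclear genes of the respiratory chain did not share this difference. Of 58, only Uqcrb, a subunit of complex III, was higher in the members than in the low-mitochondrial marker barcodes (519 against 322 CPM, 1.61, 1.42 to 1.83), and none was lower. Together they stood at 46494 CPM against 48538 CPM, 0.958 times that level (0.946 to 0.969). The CPM denominator includes the mitochondrial UMIs, of which the rule gave the members more. That lowers the total of all nuclear genes in the members by about this factor. The ratio therefore does not show lower levels of these genes in particular. Against all other kept barcodes only Ndufs1, of complex I, was higher of the same 58. A list of mitochondrial expression, import and stress genes had genes counted in both directions. Of 26, 3 were counted as higher: Ppargc1a, the coactivator of mitochondrial biogenesis (46.0 against 27.0 CPM, 1.71, 1.09 to 2.63), Tfb2m, a transcription factor of the organelle (16 UMIs in the members, 10.5 CPM in the comparison, ratio 0.988 to 3.95), and the inner membrane protease Oma1 (30.2 against 17.8 CPM, 1.70, 0.967 to 2.91). In the other direction, 2 were counted as lower: Tfam, which packages and transcribes mitochondrial DNA (27.6 against 48.9 CPM, 0.564 times, 0.336 to 0.907), and Timm23, a channel for protein import (13.1 against 27.0 CPM, 0.487 times, 0.222 to 0.961). These 5 rest on 10 to 35 UMIs each in the members, the intervals of Oma1 and Tfb2m include 1, and Oma1 did not pass within the astrocyte-gene clusters.

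**Figure D4:**
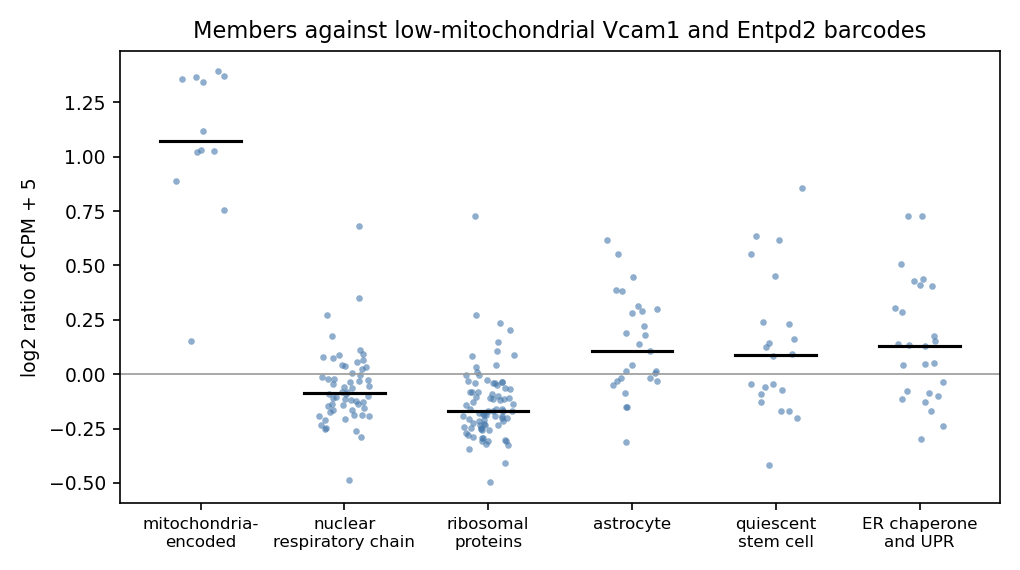
Each point is a measured gene, placed by its log2 ratio of CPM + 5 in the members over the low-mitochondrial marker barcodes (y axis), and black lines mark the medians of 6 gene lists (x axis). The median of the mitochondria-encoded genes, used by the rule, is 1.07, while those of the nuclear respiratory chain (-0.09), ribosomal protein (-0.17), astrocyte (0.11), quiescent stem cell (0.09) and ER genes (0.13) lie near 0.

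Among single genes against the low-mitochondrial marker barcodes, Rab6a, a GTPase of the Golgi, had the largest ratio of those with at least 50 UMIs in the members. It stood at 164 CPM in each barcode set of the members and at 83.2 and 76.7 CPM in those of the other group, a ratio of 2.02 (1.59 to 2.55). Wsb1, an adaptor of a ubiquitin ligase, stood at 93.3 against 49.4 CPM (1.89, 1.38 to 2.57), and Nr3c1, the glucocorticoid receptor, at 71.0 against 39.8 CPM (1.78, 1.25 to 2.53). Within the astrocyte-gene clusters, Rab6a and Wsb1 did not pass against the marker-free mitochondrial-rich barcodes. Their ratios there were 1.06 (0.831 to 1.36) and 1.34 (0.947 to 1.89). Marcks, a substrate of protein kinase C, stood at 226 CPM (206 and 272) against 127 CPM (122 and 140). Genes that were lower included Nupr1, a small stress-induced nuclear protein, at 14.5 CPM (15.1 and 12.9) against 48.9 CPM (59.7 and 21.2), 0.296 times (0.143 to 0.550). Crym, a thyroid hormone binding protein, stood at 17.1 against 50.3 CPM, and the calcium binding proteins S100a3 and S100a6 at 23.7 against 52.6 CPM and at 503 against 820 CPM. Each of these was on the same side in both barcode sets.

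Lipid genes were looked at because the study treats cells with an oxysterol. Abca1, the pump that exports cholesterol and a target of the oxysterol receptor LXR, stood at 152 CPM in the members (130 and 203 in sets 1 and 2) and at 84.1 CPM in the low-mitochondrial marker barcodes (73.0 and 113), a ratio of 1.81 (1.42 to 2.30). It stood at 69.6 CPM in all other kept barcodes (2.19, 1.80 to 2.64) and at 78.6 CPM in Gfap-high barcodes, but at 134 CPM in the marker-free mitochondrial-rich barcodes (1.14, 0.901 to 1.43). Thus Abca1 was high in both groups with a mitochondrial share of 5 to 10%. It was higher in set 2 than in set 1 in all of these groups. Within the astrocyte-gene clusters its ratio to the other barcodes was 1.65 (1.35 to 2.01). Of 14 LXR target genes, 5 were higher than in all other barcodes (Abca1, Apoe, Lpcat3, Pltp and Srebf1) and Apod was lower, while within the astrocyte-gene clusters Abca1 was the only one of 13 that passed. Scd2, a fatty acid desaturase, stood at 1743 CPM (1525 and 2239) against 792 CPM in all other barcodes and 1160 CPM in the low-mitochondrial marker barcodes (1074 and 1381), with an interval of 1.40 to 1.61 for the ratio to the latter. Within the astrocyte-gene clusters its ratios of 1.46 and 1.49 to these groups did not pass. Of 24 cholesterol synthesis genes, Sqle and Srebf2 were higher than in all other barcodes (8.33%, against 8.65% of all genes) and Acat2 was lower.

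Among genes outside the rule with at least 50 UMIs in the members, the highest ratios to all other kept barcodes belonged to Fam134b and Retsat, both of which encode proteins of the ER. Fam134b, a receptor for the autophagy of ER membrane, stood at 67.0 CPM (68.0 and 64.7) against 23.8 CPM (24.8 and 20.8), a ratio of 2.82 (2.09 to 3.74). Retsat, which saturates retinol, stood at 71.0 CPM (71.8 and 69.0) against 25.6 CPM (25.8 and 25.1), a ratio of 2.77 (2.07 to 3.65). Both were also higher than in the low-mitochondrial marker barcodes, with ratios of 1.73 (1.19 to 2.47) and 1.74 (1.22 to 2.47), and than in the marker-free mitochondrial-rich barcodes, with 2.34 and 2.21. Within the astrocyte-gene clusters their ratios to the other barcodes were 1.81 and 1.84. They rest on 51 and 54 UMIs in the members. Other genes with high ratios to all other barcodes were Slc22a4, a transporter of carnitine and ergothioneine (80.2 against 33.8 CPM), S1pr3, a sphingosine phosphate receptor (86.8 against 37.3 CPM), C1ql1, a secreted synaptic protein (134 against 56.4 CPM), and Rsrp1 (159 against 69.3 CPM).

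The 738 marker-free mitochondrial-rich barcodes share the mitochondrial window of the members. Of 7679 genes, 553 (7.2%) were higher in the members and 390 (5.08%) were lower. ER genes were higher at 7 of 25: Derl2, Dnajc3, Hspa13, Hspa5, Pdia4, Sel1l and Sil1. Pdia4 stood at 259 CPM against 127 CPM (125 and 131 in sets 1 and 2), a ratio of 2.04 (1.68 to 2.49), and Clu at 1625 CPM against 799 CPM (799 in each set). Of 28 astrocyte genes 6 were higher (Aqp4, Atp1b2, Clu, Cst3, Gja1 and Mlc1), and of 15 activated progenitor genes 14 were lower, Ccnd2 at 359 against 965 CPM. None of the 12 measured mitochondrial genes passed, in groups that the rule holds to the same mitochondrial window, and within the astrocyte-gene clusters 1 of 12, mt-Atp8, was lower. Of these barcodes, 454 of 738 lay in the astrocyte-gene clusters, against 266 of 282 members. Within those clusters (266 members and 454 barcodes), 314 of 6668 genes (4.71%) were higher and 268 (4.02%) lower, with Clu the 1 astrocyte gene of 27 that was higher and Ccnd1 and Egfr the 2 progenitor genes of 11 that were lower.

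Against the Gfap-high barcodes, 437 of 10660 genes (4.1%) were higher in the members and 208 (1.95%) were lower. No astrocyte gene of 30 was higher, and Aldoc (611 against 1060 CPM) and Sparcl1 were lower. ER genes were higher at 5 of 29 (Hspa13, Hspa5, Pdia4, Sel1l and Sil1), with Hspa5 at 432 CPM against 252 CPM. Against the barcodes with Pcp4, Agt and Gria1, 327 of 9600 genes (3.41%) were higher and 259 (2.7%) were lower. There Pdia4 and Sil1 were the ER genes of 27 that were higher, and Plat stood at 150 CPM in the members and 159 CPM in the comparison. Pdia4 thus passed the criterion in 4 of the 5 comparisons, with ratios of 1.64 to 2.21, and Plat in 1.

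Broadly, but not from each band to the next, Vcam1 and Entpd2 stood higher at higher mitochondrial shares up to 25%, beyond the window of the rule. In most values they were lower again above that. Among all barcodes that met the gene minimum and the Gfap, Pcp4, Agt, Gria1 and mitotic limits, with no condition on Vcam1 or Entpd2, Vcam1 stood at 48.5 CPM in 390 barcodes with under 1% mitochondrial UMIs, at 120 CPM at 4 to 5% (788 barcodes), at 140 CPM at 5 to 6% (478), at 196 CPM at 9 to 10% (110) and at 338 CPM at 15 to 25% (203). Entpd2 stood at 56.9, 145, 138, 191 and 371 CPM in the same bands. Some neighbouring bands broke the order. Vcam1 stood at 172 CPM at 6 to 7% and 145 CPM at 7 to 8%, and Entpd2 at 202 CPM at 8 to 9%. In the 66 barcodes with 25% or more they stood at 282 and 221 CPM. The upper limit of 10% therefore left out the barcodes with the highest levels, which were shallow, with a median of 1169 UMIs at 15 to 25%. Pdia4 stood at 77.0 CPM under 1%, 138 CPM at 4 to 5%, 224 CPM at 9 to 10% and 389 CPM at 15 to 25%. Clu stood at 465, 1008, 1438 and 2874 CPM and Slc1a3 at 169, 466, 831 and 960 CPM in these 4 bands. Malat1, a nuclear RNA, was ordered the same way, at 13868, 25014, 33707 and 55539 CPM, and ribosomal protein genes the opposite way, at 205446, 152368, 117205 and 64792 CPM. Nuclear respiratory chain genes stood at 45756, 46909, 45009 and 38199 CPM. Hspa5 did not follow the order of Pdia4, with 385 CPM under 1%, 254 CPM at 4 to 5% and 354 CPM at 9 to 10%. The whole ER list stood at 3268, 3259 and 3545 CPM in these 3 bands. At 25% or more Pdia4, Clu, Slc1a3 and Malat1 also stood below the 15 to 25% band, at 312, 2093, 674 and 41682 CPM. Within the 2 astrocyte-gene clusters, Vcam1 stood at 123 CPM under 1%, 145 CPM at 4 to 5% and 221 CPM at 9 to 10%, whereas Entpd2 stood at 231, 191 and 225 CPM. In the same 3 bands of these clusters Slc1a3 stood at 401, 538 and 867 CPM, Pdia4 at 185, 163 and 211 CPM and Clu at 1481, 1292 and 1617 CPM. Hspa5 stood at 633, 246 and 368 CPM, highest in the band under 1%. Malat1 stood at 36508, 28383 and 34578 CPM and ribosomal protein genes at 121113, 130619 and 109505 CPM. Over these 3 bands Entpd2, Pdia4, Hspa5, Clu, Malat1 and the ribosomal protein genes did not follow the order of the mitochondrial share. The band under 1% held 46 barcodes there, with a median of 1046.5 UMIs. Between the other 2 bands, Entpd2, Pdia4, Hspa5, Clu and Malat1 stood higher at 9 to 10% and ribosomal protein genes lower. The intervals of Entpd2 and of Pdia4 in those 2 bands overlap. At 2 to 3% Pdia4 stood at 153 CPM and Clu at 1215 CPM.

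**Figure D5:**
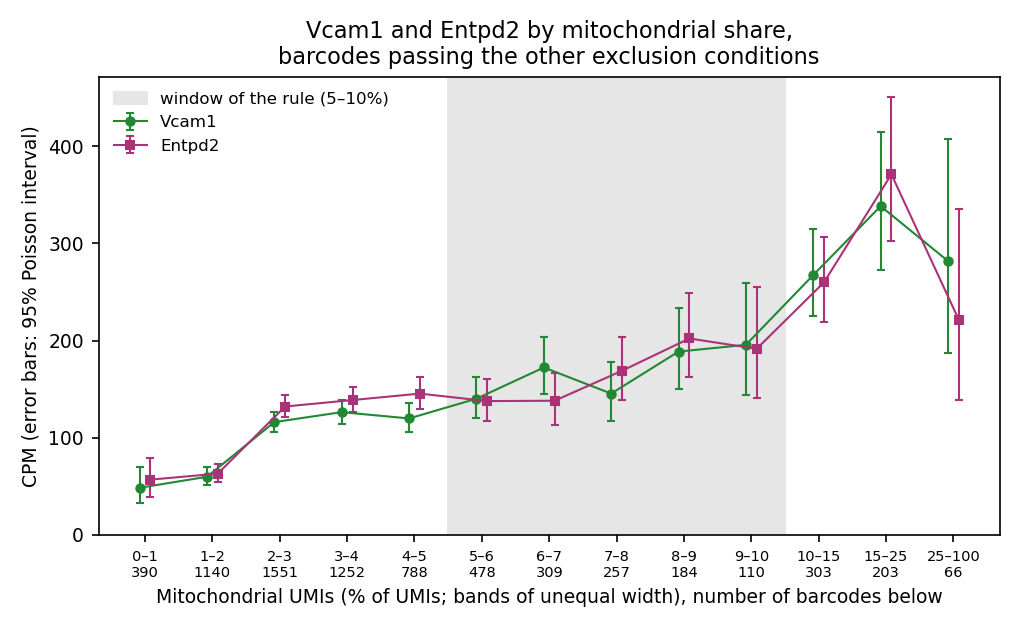
The level of Vcam1 (circles) and Entpd2 (squares) in CPM with exact 95% Poisson intervals (y axis) is plotted in bands of mitochondrial share of unequal width (x axis, number of barcodes below each band), for barcodes chosen without a condition on these 2 genes. Inside the shaded window of the rule Vcam1 stood at 140 CPM in its lowest band and 196 CPM in its highest, and it reached 338 CPM in the 15 to 25% band.

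Signs of RNA composition moved with these groups, and their part in the differences was not tested. Ribosomal protein genes were lower than in all other barcodes at 27 of 82 and none was higher, with 107598 CPM against 156973 CPM and a median log2 ratio of -0.53. Against the low-mitochondrial marker barcodes none was lower and Rpl22l1 was higher, with 107598 CPM against 120025 CPM (0.896 times), and within the astrocyte-gene clusters none of 82 was lower than in the other barcodes. Malat1 stood at 32547 CPM in the members, 20944 CPM in all other barcodes (1.55, 1.53 to 1.57) and 27373 CPM in the low-mitochondrial marker barcodes (1.19, 1.17 to 1.21). Meg3 and Neat1, both nuclear RNAs, were higher than in all other barcodes as well. Members were thus poorer in ribosomal protein transcripts and richer in nuclear RNA than the average barcode, and nearer to other barcodes of their own clusters.

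Stress genes outside the ER did not differ in 1 direction. For the list counts against all other barcodes here and below, the shares over all measured genes were 8.65% higher and 6.3% lower. In the list of the integrated stress response, which halts translation and induces amino acid genes, 4 of 32 were higher than in all other barcodes (Phgdh, Slc7a11, Slc7a5 and Vldlr) and 7 were lower (Asns, Atf4, Atf5, Chac1, Eif4ebp1, Mthfd2 and Nupr1). Asns, asparagine synthetase, stood at 9.20 CPM against 38.9 CPM, and Atf4, the central transcription factor of this response, at 32.9 CPM against 60.2 CPM. Chac1, Fgf21, Gdf15, Stc2 and Trib3 had no UMI in the members. Of 22 apoptosis and p53 genes, Bcl2 and Eda2r were higher, a share near that over all genes, and none was lower. Of 25 hypoxia and glycolysis genes only Hk1 was higher (125 CPM against 66.0 CPM). The hypoxia list stood at 4887 CPM against 4926 CPM in all other barcodes and 5925 CPM in the low-mitochondrial marker barcodes. Of 22 immediate early genes, Fos, Fosb, Junb and Zfp36 were higher and Dnajb1 was lower.

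Partners of the 2 marker proteins were looked for among adhesion and purine genes. Itga4 and Itga9, integrin subunits that bind Vcam1, had no UMI in the members. Of 27 adhesion and matrix genes, 9 were higher than in all other barcodes (Bcan, Cdh2, Col4a5, Ephb2, Itga6, Itgav, Itgb8, Lamb2 and Ncan) and 4 were lower (Bgn, Col4a1, Col4a2 and Dcn). Bcan, the proteoglycan brevican, stood at 221 CPM against 105 CPM (interval of the ratio 1.79 to 2.45), and Itga6, a laminin receptor subunit, at 59.1 CPM against 33.0 CPM. Itgb8, an integrin subunit that activates TGF-beta, was also higher than in the low-mitochondrial marker barcodes (64.4 against 37.0 CPM, 1.74, 1.19 to 2.51). Of 20 genes of purine signalling only Enpp5 was higher. Of 16 NF-kappaB targets, a pathway known to induce Vcam1, 3 were higher (Nfkb1, Tnfrsf1a and Traf1), and of 19 interferon and antigen presentation genes 4 were, among them Gbp2 and H2-K1. Of 21 proteases and inhibitors 6 were higher: Adamts1, Ctsl, Htra1, Plat, Timp2 and Timp3. Plau and Plaur, the other activator of plasminogen and its receptor, had no UMI.

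Of the remaining lists, against all other barcodes, 6 of 21 reactive astrocyte genes were higher (Cd44, Cp, Cryab, Emp1, Ggta1 and Osmr), as were 6 of 23 lysosomal genes (Ctsl, Lamp1, Lamp2, Npc1, Psap and Tpp1). Of 18 Notch and BMP genes, Id4 and Notch3 were higher and Bmp4 was lower. None of 9 hedgehog genes passed, and with 81 UMIs in the whole list a difference in most of them was not detectable at this depth. Gli1 and Shh had no UMI in the members.

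Markers of other cell types stood as follows, and their part in the differences was not tested. Neuroblast genes summed to 419 CPM in the members and 936 CPM in all other barcodes, with 8 of 13 lower and Dlx5, Dlx6os1 and Sp8 at 0. Microglial genes summed to 60.5 CPM against 161 CPM, and Aif1, C1qb, Csf1r, Cx3cr1 and Tmem119 were at 0. Mural and fibroblast genes summed to 206 CPM against 573 CPM, and Col3a1, Dcn, Kcnj8, Lum and Vtn were at 0. These 3 lists were below the average barcode. Endothelial cells are a known source of Vcam1, and their genes summed to 32.9 CPM (21.3 to 48.5) against 24.6 CPM, with Cdh5, Cldn5, Emcn, Esam, Ly6c1, Tek and Tie1 at 0 and Pecam1 higher. Oligodendrocyte precursor genes summed to 358 CPM against 288 CPM, with C1ql1 among the genes that were higher, Gpr17, Olig1, Olig2, Pllp and Sox10 lower and both Gpr17 and Sox10 at 0. Ependymal genes summed to 732 CPM against 511 CPM, with Cfap126 and Foxj1 higher and Tmem212 at 0, and to 996 CPM in the low-mitochondrial marker barcodes. Choroid plexus genes summed to 11.8 CPM against 7.24 CPM with 6 of 8 at 0. No erythroid UMI was found, which allows up to 4.85 CPM, the upper end of the exact 95% interval.

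Members differed among themselves. Across 2041 genes with at least 60 UMIs in the members, the median ratio of variance to mean of the UMIs per barcode was 1.09, near that of pure counting. Spp1, osteopontin, had the highest at 43.6, since 101 UMIs came from 20 members and 66 of them from 1. Malat1 (27.0), the metallothionein Mt1 (15.1), Apoe (10.8) and Dbi (10.1) followed. Stmn2, a neuronal gene, had 209 UMIs in 79 members with up to 28 in 1 (5.77). Spp1 therefore came largely from a few barcodes. Malat1 had UMIs in 281 members, Mt1 in 274, and Apoe and Dbi in all 282. The ratio is of raw UMIs without adjustment for depth, so a ratio near that of counting in a gene with few UMIs does not show that members were alike.

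Members with only Vcam1 and members with only Entpd2 differed in several genes. Plat stood at 224 CPM (164 to 298) in the 74 with Vcam1 only and 74.0 CPM (37.0 to 132) in the 59 with Entpd2 only. Gfap stood at 1381 and 2719 CPM, Slc1a3 at 584 and 848 CPM, and Apoe at 7472 and 10599 CPM. Pdia4 stood at 272 and 256 CPM, and Aqp4 at 1070 and 1009 CPM. Fabp7 stood at 1581 and 1077 CPM, and Ccnd2 at 491 and 310 CPM. So Plat, Fabp7 and Ccnd2 stood higher with Vcam1 only and the astrocyte genes Gfap, Slc1a3 and Apoe with Entpd2 only, while Pdia4 was at a like level in both. In the 149 members with both markers, Fabp7 (1139 CPM) and Ccnd2 (310 CPM) were near the level with Entpd2 only. Plat (140 CPM), Gfap (1970 CPM), Slc1a3 (706 CPM) and Apoe (8807 CPM) lay between the 2 subsets there. Fabp7 and Ccnd2 were uneven across all members, with up to 28 and 24 UMIs in 1 barcode. The median mitochondrial share also differed, at 6.56% with Vcam1 only and 7.22% with Entpd2 only. Members with 0 to 4 Gfap UMIs (164) had 178 CPM of Plat and 7633 CPM of Apoe, and those with 5 to 19 (118) had 110 and 10417 CPM. Members with a mitochondrial share of 5 to 7% had 384 CPM of Hspa5 and 609 CPM of Slc1a3, and those at 7 to 10% had 497 and 823 CPM. Gfap stood at 1646 and 2373 CPM, Apoe at 8071 and 9765 CPM and Plat at 163 and 132 CPM in these members. The part of the mitochondrial share in the differences between Vcam1-only and Entpd2-only members was not tested.

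The 2 barcode sets differed too. Members of set 2 had more Pdia4 (332 against 227 CPM), Hspa5 (574 against 370 CPM), Slc1a3 (906 against 611 CPM) and Malat1 (38272 against 30039 CPM). Members of set 1 had more Apoe (9903 against 6269 CPM) and Ccnd2 (412 against 237 CPM). In all other barcodes Pdia4 and Hspa5 did not run the same way: they stood at 122 and 104 CPM and at 276 and 249 CPM in sets 1 and 2. No label says what the 2 sets are, so the source of these differences cannot be told apart here.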

How the data were processed

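Per the labels' protocols, libraries were of the 10x Chromium 3′ type (version 1). The authors deposited whole UMI counts for 28692 genes in 14685 barcodes as 1 matrix, made with Cell Ranger 2.1.1 on mm10 per the submitters' processing notes. All value columns were used (0 unmapped).

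The rule was applied to raw counts, and UMIs were summed over barcodes and divided by all UMIs of the group (per 1e+06, CPM). The matrix is 1 sample, so intervals are exact at 95% and no test was made. Members and gene lists were chosen with earlier results of these data known. Genes named are those of the rule and label, the 12 largest and 12 smallest ratios among genes that passed in 3 comparisons (at least 50 UMIs in the members for larger, 100 in the other group for smaller), and from each list the 3 genes with most UMIs and those counted as passing; genes named beyond these were chosen after their values were seen. Rule genes and mitochondrial genes were left out of counts over all genes. The criterion's script was checked on simulated data.

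Clusters came from 2000 variable genes, 30 principal components, 15 neighbours and Leiden resolution 0.5, after scaling each barcode to 10000 UMIs. Doublets were called per set with Scrublet, with 0.8% expected per 1000 barcodes. Gene positions are from GENCODE M21 (98.8% of gene IDs matched). Alternatives covered the fold, the UMI minimum, the value added before the log, a denominator without mitochondrial UMIs, thinning to 1000 UMIs, averaging per barcode, the rule's limits, doublets and 1 barcode set alone. Added after the data were seen were restriction to the astrocyte-gene clusters, comparison barcodes with at most 1 mitotic UMI, the counting error of both groups, and other clustering settings. Versions were Python 3.11.15, numpy 2.4.6, scipy 1.17.1, pandas 2.3.3, scanpy 1.11.5, scikit-learn 1.9.0, matplotlib 3.10.9, python-igraph 0.11.9 and leidenalg 0.10.2.
Some genes are not reported here.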

Additional observations from a re-analysis of the deposited data

Results flagged for a closer look

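Vcam1 and Entpd2 were also present in barcodes that the rule and the comparisons leave out. In the 772 barcodes with at least 500 genes and more than 10% mitochondrial UMIs (median 13.8%, median 1416 UMIs), both genes together stood at 515 CPM from 749 UMIs (479 to 553), where a count of 0 would have allowed 2.06 CPM. In the 635 barcodes with fewer than 500 detected genes (median 876 UMIs and 2.51% mitochondrial), they stood at 241 CPM from 144 UMIs (203 to 284), where a count of 0 would have allowed 5.02 CPM. Both of these limits are the level of 3 UMIs in the group, not the end of an exact interval. All kept barcodes stood at 218 CPM and the members at 970 CPM.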

How the results depend on the processing

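No paired analysis was possible because the matrix is 1 sample. The number of members was 600 with at least 1 UMI of Vcam1 and Entpd2, 106 with at least 3, 602 without the Gfap, Pcp4, Agt, Gria1 and mitotic limits and 132 with barcodes thinned to 1000 UMIs first (282 as reported). Counts of genes that passed in either direction were 1950 against all other barcodes, 643 against low-mitochondrial marker barcodes, 943 against marker-free mitochondrial-rich barcodes, 645 against Gfap-high barcodes and 586 against Pcp4, Agt and Gria1 barcodes. At 2-fold they were 936, 195, 300, 272 and 231. With a minimum of 100 UMIs they were 199, 370 and 321 for the low-mitochondrial, marker-free and Pcp4, Agt and Gria1 groups, and with means per barcode 1042 and 930 for the Gfap-high and the Pcp4, Agt and Gria1 groups. With at least 3 marker UMIs the low-mitochondrial count was 399. Within the astrocyte-gene clusters the counts were 494 against all other barcodes and 582 against marker-free barcodes, and against barcodes with at most 1 mitotic UMI 875. The cause was not tested.

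Log2 ratios that changed sign within the astrocyte-gene clusters were, against all other barcodes, 2810417H13Rik 0.090, Coro1c 0.14, Lima1 0.014 and Pak3 0.34, against low-mitochondrial barcodes Col1a1 0.50, and against marker-free barcodes Nupr1 0.18 and Pttg1 0.15. Pak3 against low-mitochondrial barcodes was -0.40 with thinning and -0.43 with at least 3 marker UMIs, and 2810417H13Rik against Gfap-high barcodes was 0.013 without doublets. Of the other values of single genes, 3976 lay within the counting error of the reported value and 499 moved beyond it without a called value changing sign. With the counting error of both groups in the criterion, 441 of the 643 genes against low-mitochondrial barcodes still passed.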
